A study of Mus musculus with 12 samples.

Results

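The membrane-spanning 4A (Ms4a) genes encode small proteins that cross the membrane several times and sit beside immune receptors, where they alter signaling, receptor traffic and calcium entry. The best known relatives are CD20 (*Ms4a1*) on B cells and the beta chain of the high-affinity IgE receptor (*Ms4a2*) on mast cells. Many other members are made by macrophages, monocytes or T cells, and several are used as marks of macrophages in tissues and tumors. The members described here are *Ms4a4a*, *Ms4a4b*, *Ms4a4c*, *Ms4a6b*, *Ms4a6c*, *Ms4a6d*, *Ms4a7* and *Ms4a8a*. They are 8 of the 19 Ms4a genes among the 31053 genes of the files.

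The study asked how signaling of coagulation factor Xa through the receptor PAR2 shapes immune cells in breast tumors. All mice were females of the MMTV-PyMT model on a C57BL/6 background, in which the mouse mammary tumor virus promoter drives the polyoma middle T oncogene in mammary tissue, and they had no additional treatment. The groups were wild-type and PAR2 G37I mutant mice, whose receptor resists factor Xa, and each genotype gave 3 samples per cell selection. Beads against CD11c were used on late-stage tumors, and beads against CD4 and CD8 on tumors of medium size. Libraries were 10x Genomics ones, made from cells that had been kept frozen, and count RNA molecules by unique molecular identifiers (UMIs).

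The 6 samples of each cell selection were pooled in a matrix whose barcodes carry no sample name, so each matrix was treated as 1 sample and genotypes were not compared. The barcodes run through the alphabet 6 times in each matrix, and these stretches, called barcode runs, served as unlabelled parts of it. The CD11c-selected matrix held 11639 cells with at least 200 detected genes, with a median of 7943 UMIs per cell and 13314063 to 24245504 UMIs per run. The CD4/CD8-selected matrix held 22806 cells, with a median of 4361 UMIs and 16222260 to 30182353 UMIs per run. Both matrices shared 92 barcodes, and 76 and 51 barcodes occurred more than once within them. A few runs stood apart. Run 4 of the CD11c-selected cells had only 360 barcodes and a median of 31161.5 UMIs per cell, against at most 9285.5 in the other runs. Run 3 of the CD4/CD8-selected cells held 442 of the 830 macrophages of that matrix, and 166 of its 180 *Gpnmb* *Spp1* *Trem2* macrophages.

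Cells were gated on raw UMIs of marker genes, none of which was an Ms4a gene. Macrophages were gated on the complement genes *C1qa*, *C1qb* and *C1qc* (5412 CD11c-selected and 830 CD4/CD8-selected cells). Sub-gates were set on *Lyve1*, *Cd209f*, *Cd209g* and *Fcna* (resident-like, named below by the first pair), on *Gpnmb*, *Spp1* and *Atp6v0d2* together with *Trem2* (lipid-associated, named *Gpnmb* *Spp1* *Trem2*), on *Il10*, on *Thbs1* and *Vegfa*, and on *Tmem119* and *Zmynd15*. The other CD11c-selected gates held 813 *Retnla* *Ear2* *Fn1* cells, 64 *Ly6c2* monocytes, 130 cells with both *Ly6c2* and C1q UMIs, 789 dendritic cells, 136 neutrophils and 81 T cells. The CD4/CD8-selected T cell gate held 19208 cells, among them 1778 naive-like, 827 progenitor-like and 644 exhausted CD8 T cells, 570 conventional CD4 T cells and 96 *Foxp3* T cells. Gates took in 67.0% and 89.8% of the cells of the matrices. As the gates required, the macrophage gates had summed C1q levels of 11975 and 13723 UMIs per 1000000 UMIs of the gate (CPM), while the 5 T cell receptor and CD3 genes together stood at 0.474 and 12.5 CPM. The monocyte gate was limited in both sets, which summed to 160.4 and 0 CPM there. *Plac8*, *Chil3* and *Ccr2*, which no gate used, summed to 2350.1 CPM in it, against 189 CPM in CD11c-selected macrophages. Besides macrophages and dendritic cells, the CD11c-selected cells held the neutrophils and T cells above, 236 tumor or epithelial cells and 112 fibroblasts. The paper also reports T cells and tumor cells among them.

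Levels below are CPM with exact 95% Poisson intervals (CI), which cover counting error only. The spread is the lowest, median and highest of the barcode runs that had at least 10 cells of the gate. A UMI counts a molecule and was not divided by transcript length, so levels are compared between cells and not between genes. Together the 8 members took up 1918 CPM of the UMIs of CD11c-selected macrophages, 2326 CPM in monocytes and 1811 CPM in CD4/CD8-selected T cells. By contrast, they summed to 89.3 CPM in cDC1, the dendritic cells that carry *Xcr1* and *Clec9a*, and to 21.7 CPM in tumor or epithelial cells.

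**Figure D1:**
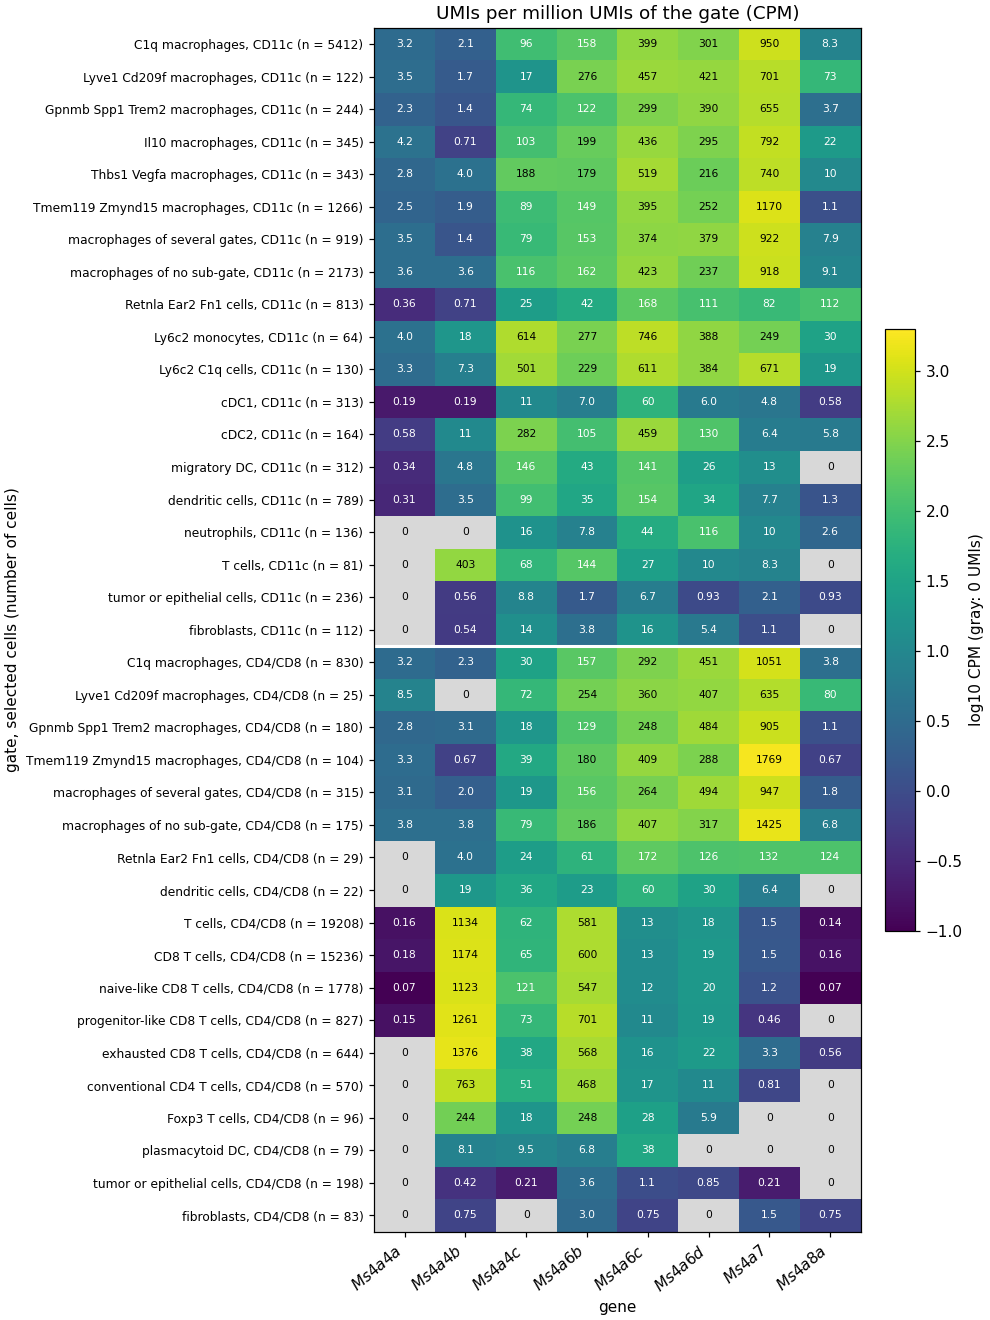
Level of each of the 8 members (log10 of CPM by color, gray for 0 UMIs, with the CPM written in) in the gates of both matrices. *Ms4a4b* and *Ms4a6b* are high in T cell gates, *Ms4a7*, *Ms4a6c* and *Ms4a6d* in macrophage gates, and *Ms4a8a* in *Retnla* *Ear2* *Fn1* and *Lyve1* *Cd209f* cells.

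*Ms4a7*, a gene used as a mark of tissue macrophages, followed the C1q gate most closely. Its level was 950.1 CPM in CD11c-selected macrophages (CI 942 to 958), and the runs lay at 871, 948 and 1098 CPM. In CD4/CD8-selected macrophages it was 1051 CPM (CI 1035 to 1068), with runs at 878, 1405 and 1643, run 3 being the lowest, and 1458 CPM without it. Macrophages thus carried the gene in all 6 runs of both matrices. Among sub-gates the *Tmem119* *Zmynd15* macrophages stood highest, at 1769 CPM in CD4/CD8-selected cells (CI 1702 to 1838) and 1170 CPM in CD11c-selected cells (CI 1153 to 1187). Lower in CD11c-selected cells came *Il10* macrophages with 792 CPM, *Thbs1* *Vegfa* macrophages with 740.4, *Lyve1* *Cd209f* macrophages with 701, cells with *Ly6c2* and C1q with 671, and *Gpnmb* *Spp1* *Trem2* macrophages with 655. Each of these overlapped its neighbor in the order by its interval. *Ly6c2* monocytes stood clearly below all macrophage gates, with 249 CPM (CI 208 to 297). *Retnla* *Ear2* *Fn1* cells had 82.2 CPM (CI 77.6 to 87.1), and their run 4, at 145 CPM, lay above the other 5 runs. Dendritic cells were lower again with 7.65 CPM (CI 6.02 to 9.59), and neutrophils had 10.4 CPM from 4 UMIs (CI 2.82 to 26.5, and 5.37 without run 6). T cells had 8.26 CPM from 4 UMIs in CD11c-selected cells (3.60 without run 2) and 1.46 CPM in CD4/CD8-selected cells. The latter value rested on run 3, without which it was 0.544 CPM. After each cell was thinned to 1000 UMIs, 53.6% of CD11c-selected macrophages had an *Ms4a7* UMI (CI 52.2% to 54.9%), and 0.766% of dendritic cells did. The same shares without thinning were 89.2% and 7.98%, at median depths of 8017.5 and 11414 UMIs.

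*Ms4a6c*, a gene of monocytes and macrophages, reached further into the myeloid cells. Monocytes ranked highest with 746 CPM (CI 673 to 826; 3 runs at 617, 676 and 792), before cells with *Ly6c2* and C1q at 611 CPM (CI 572 to 652). Next were *Thbs1* *Vegfa* macrophages with 519 CPM (CI 495 to 545), cDC2, the dendritic cells with *Cd209a*, at 459 CPM (CI 427 to 492), and *Lyve1* *Cd209f* macrophages at 457 CPM (CI 419 to 498). These 5 highest gates overlapped their neighbors in the spread of their runs, and the last pair also by interval. All CD11c-selected macrophages had 399 CPM (CI 394 to 404), with runs at 375, 394 and 466. CD4/CD8-selected macrophages had 292 CPM (CI 284 to 301; runs 249, 368 and 439, run 3 lowest), and 396 CPM without run 3. Below the macrophages stood *Retnla* *Ear2* *Fn1* cells with 168 CPM, migratory dendritic cells with 141, cDC1 with 59.5, neutrophils with 44.0 (17.8 without run 2 and 69.8 without run 6) and plasmacytoid dendritic cells with 38.0. T cells came near the bottom, at 26.8 CPM in CD11c-selected cells (CI 14.3 to 45.9; 5.81 without run 1 and 43.2 without run 2) and 13.3 CPM in CD4/CD8-selected cells (CI 12.6 to 14.0). Thinned to 1000 UMIs, 32.6% of CD11c-selected macrophages and 45.2% of monocytes had an *Ms4a6c* UMI, against 1.52% of CD4/CD8-selected T cells. Unthinned shares were 81.9%, 90.6% and 6.10%, at median depths of 8017.5, 7774.5 and 4426.5 UMIs.

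*Ms4a6d*, whose product sits in the macrophage membrane and has been linked to the complement receptor VSIG4, differed from *Ms4a6c* in its order of macrophage gates. CD4/CD8-selected macrophages had 451 CPM (CI 441 to 462; runs 182, 369 and 494), with run 3 at the top, and 351 CPM without it (CI 334 to 368). Within that matrix the *Gpnmb* *Spp1* *Trem2* macrophages, nearly all of run 3, had 484 CPM (CI 462 to 508). Among CD11c-selected cells, *Lyve1* *Cd209f* macrophages had 421 CPM (CI 384 to 460.5), *Gpnmb* *Spp1* *Trem2* macrophages 390.4 (CI 370.0 to 412), monocytes 388 (CI 336 to 446) and cells with *Ly6c2* and C1q 384 (CI 353 to 417). The intervals of these 4 neighbors overlapped, so no order among them was resolved. The whole CD11c-selected macrophage gate stood at 301 CPM (CI 297 to 306; runs 243, 295 and 361), *Il10* macrophages at 295, *Tmem119* *Zmynd15* macrophages at 252 and *Thbs1* *Vegfa* macrophages at 216. *Thbs1* *Vegfa* cells were therefore near the top of the order for *Ms4a6c* and the lowest macrophage sub-gate for *Ms4a6d*. A step separated them from cDC2, with 129.7 CPM (CI 113 to 148), neutrophils, with 116 CPM (CI 84.9 to 156; 3 runs at 77.1, 120.0 and 133), and *Retnla* *Ear2* *Fn1* cells, with 111 CPM. Neutrophils carried this member at the level of cDC2 within counting error. Levels were low in migratory dendritic cells (26.1 CPM), T cells (18.4 CPM from 1859 UMIs in CD4/CD8-selected and 10.3 in CD11c-selected cells) and cDC1 (5.99 CPM). Thinned shares were 22.5% in CD11c-selected macrophages, 10.2% in neutrophils and 1.63% in CD4/CD8-selected T cells. Without thinning they were 71.5%, 22.8% and 8.50%, at median depths of 8017.5, 2806 and 4426.5 UMIs.

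*Ms4a4a*, whose product associates with the glucan receptor dectin-1 in macrophages, was sparse. It gave 234 UMIs in the CD11c-selected and 81 UMIs in the CD4/CD8-selected cells. CD11c-selected macrophages had 3.15 CPM from 173 UMIs (CI 2.70 to 3.66; runs 2.20, 3.14 and 4.52), and CD4/CD8-selected macrophages had 3.20 CPM from 49 UMIs (CI 2.37 to 4.23; runs 0, 3.60 and 5.06). Levels in the macrophage sub-gates of CD11c-selected cells went from 2.29 CPM in *Gpnmb* *Spp1* *Trem2* cells (1.43 without run 2) to 4.23 CPM in *Il10* cells, and each interval overlapped the next. No difference between macrophage states was detectable at this depth. Monocytes had 3.96 CPM from 2 UMIs (CI 0.480 to 14.3). *Retnla* *Ear2* *Fn1* cells lay below the macrophages at 0.356 CPM (CI 0.116 to 0.832), as did dendritic cells at 0.306 CPM from 3 UMIs (CI 0.0631 to 0.894) and CD4/CD8-selected T cells at 0.159 CPM from 16 UMIs (CI 0.0907 to 0.258). Neutrophils and CD11c-selected T cells had 0 UMIs, where 3 UMIs would be 7.76 and 6.19 CPM, so these gates were too shallow to set them apart from macrophages. The gene was seen in 0.376% of thinned CD11c-selected macrophages and 0.0268% of thinned CD4/CD8-selected T cells. Unthinned, the shares were 2.96% and 0.0833%, at medians of 8017.5 and 4426.5 UMIs.

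*Ms4a8a*, which has been described in alternatively activated macrophages, had an order unlike the other members of macrophages. *Retnla* *Ear2* *Fn1* cells led with 112 CPM in CD11c-selected cells (CI 106 to 117; runs 91.9, 118 and 123) and 124 CPM in CD4/CD8-selected cells (CI 94.5 to 159, from 29 cells). Next were *Lyve1* *Cd209f* macrophages, at 72.5 CPM in CD11c-selected cells (CI 57.8 to 89.9; runs 24.4, 84.0 and 124) and 80.5 CPM in CD4/CD8-selected cells (CI 48.5 to 126, and 43.4 without run 2). Both gates held the top places in both matrices, although runs of the CD11c-selected gates overlapped. A second step led to monocytes with 29.7 CPM (CI 16.6 to 49.0), *Il10* macrophages with 22.2 CPM (CI 17.1 to 28.4), cells with *Ly6c2* and C1q with 18.6 CPM and *Thbs1* *Vegfa* macrophages with 10.4 CPM, whose neighbors overlapped. Across all CD11c-selected macrophages the level was 8.28 CPM (CI 7.53 to 9.07; runs 5.96, 8.74 and 14.2), and in CD4/CD8-selected macrophages it was 3.79 CPM (runs 0, 1.64 and 24.4). Without run 3, which held most of these macrophages, the latter level was 10.3 CPM (CI 7.58 to 13.7), and without run 2 it was 2.29 CPM. *Gpnmb* *Spp1* *Trem2* macrophages had 3.72 CPM (CI 1.98 to 6.36, and 2.398 without run 5), and *Tmem119* *Zmynd15* macrophages, the top sub-gate for *Ms4a7*, had 1.13 CPM (CI 0.658 to 1.81). Dendritic cells had 1.33 CPM, neutrophils 2.59 CPM from 1 UMI, and CD4/CD8-selected T cells 0.139 CPM from 14 UMIs. Migratory dendritic cells had 0 UMIs, where 3 UMIs would be 1.03 CPM. A UMI of *Ms4a8a* was found in 10.7% of thinned *Retnla* *Ear2* *Fn1* cells (65.8% unthinned, median 15055 UMIs). Among dendritic cells 0 of 783 thinned cells had one, where 3 cells would be 0.383%, and 1.52% did unthinned at a median of 11414 UMIs.

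*Ms4a4c*, a gene of inflammatory monocytes and of activated lymphocytes, was highest in monocytes at 614 CPM (CI 547 to 686; 3 runs at 437, 560.4 and 742). Cells with both *Ly6c2* and C1q followed with 501 CPM (CI 466 to 538; runs 381, 441 and 603). The intervals of these neighbors did not overlap, but their runs did. Then came cDC2 with 282 CPM (CI 258 to 308; runs 217, 261 and 335), below every run of the cells with *Ly6c2* and C1q. *Thbs1* *Vegfa* macrophages had 188 CPM (CI 174 to 204), the highest of the macrophage sub-gates, and migratory dendritic cells had 146 CPM (CI 132 to 161). Naive-like CD8 T cells led the T cell gates with 121 CPM (CI 115 to 126; runs 51.3, 124 and 150.0). Among the others, progenitor-like CD8 T cells had 73.1 CPM (CI 66.7 to 80.0), conventional CD4 T cells 50.5 (CI 42.1 to 60.2), exhausted CD8 T cells 38.1 (CI 32.0 to 45.1) and *Foxp3* T cells 17.7 from 9 UMIs (CI 8.11 to 33.7, and 6.39 without run 1). The exhausted gate depended on run 3 of its matrix and stood at 24.4 CPM without it. CD11c-selected macrophages had 95.6 CPM (CI 93.0 to 98.2; runs 34.9, 99.7 and 121), run 4 being the lowest. CD4/CD8-selected macrophages had 29.9 CPM (CI 27.2 to 32.7; runs 13.3, 62.9 and 102), and 68.9 CPM without run 3. *Retnla* *Ear2* *Fn1* cells had 25.0 CPM, *Lyve1* *Cd209f* macrophages 16.6, neutrophils 15.5 from 6 UMIs (3.56 without run 2 and 32.2 without run 6), and cDC1 11.0 (7.31 without run 3), with intervals that overlapped from *Lyve1* *Cd209f* macrophages down. Thinned shares were 37.1% in monocytes, 9.79% in naive-like CD8 T cells and 0.452% in CD11c-selected tumor or epithelial cells. These became 82.8%, 42.1% and 3.39% without thinning, at medians of 7774.5, 7453.5 and 16764.5 UMIs.

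*Ms4a4b*, which restrains T cell proliferation and associates with the costimulatory receptor GITR, was a T cell gene in both matrices. Exhausted CD8 T cells had 1376 CPM (CI 1338 to 1415; runs 912, 1144 and 2044), progenitor-like CD8 T cells 1261 (CI 1234 to 1289; runs 1036, 1241 and 1673) and naive-like CD8 T cells 1123 (CI 1106 to 1140.4; runs 982, 1056 and 1298). The intervals of these 3 gates were apart, but their runs overlapped, and run 3 was the highest for each. Without run 3 the levels were 1100.0, 1219 and 1099 CPM, so the order of the exhausted gate depended on that run. Conventional CD4 T cells were lower with 763 CPM (CI 729 to 798; runs 512, 869 and 1090.1). *Foxp3* T cells were the lowest T cell gate, at 244 CPM (CI 203 to 291; 3 runs at 165, 258 and 262), below each run of the conventional CD4 T cells. All T cells of the CD4/CD8-selected matrix had 1134 CPM (CI 1127 to 1140.5) and those among CD11c-selected cells 403 CPM (CI 348 to 463; 3 runs at 353, 446 and 471). Outside T cells the level fell to 17.8 CPM in monocytes from 9 UMIs (CI 8.15 to 33.8, and 2.31 without run 1), 11.0 CPM in cDC2 (CI 6.65 to 17.3), 8.13 CPM in plasmacytoid dendritic cells (4.91 without run 4) and 4.81 CPM in migratory dendritic cells. Macrophages had 2.11 CPM in CD11c-selected cells (CI 1.75 to 2.54) and 2.29 CPM in CD4/CD8-selected cells (CI 1.59 to 3.18), and neutrophils had 0 UMIs, where 3 UMIs would be 7.76 CPM. Thinned to 1000 UMIs, 60.9% of CD4/CD8-selected T cells and 20.2% of *Foxp3* T cells had an *Ms4a4b* UMI, against 0.123% of macrophages of that matrix. Unthinned, these were 91.3%, 41.7% and 4.10%, at medians of 4426.5, 4296.5 and 17001 UMIs.

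*Ms4a6b*, another member that associates with GITR, was found in both T cells and myeloid cells. Progenitor-like CD8 T cells had 701 CPM (CI 681 to 722; runs 600.3, 718 and 812), exhausted CD8 T cells 568 (CI 544 to 594; runs 281, 481 and 870.2) and naive-like CD8 T cells 547 (CI 535 to 559; runs 477, 535 and 622). The intervals of exhausted and naive-like cells overlapped, and without run 3 they had 444 and 540 CPM. Conventional CD4 T cells had 468 CPM (CI 441 to 495) and *Foxp3* T cells 248 CPM (CI 207 to 296), and the runs of these gates did not overlap. Monocytes, with 277 CPM (CI 233 to 327), and CD11c-selected *Lyve1* *Cd209f* macrophages, with 276 CPM (CI 247 to 308; runs 163, 257 and 304), stood level with *Foxp3* T cells. Macrophages had 158 CPM in CD11c-selected cells (CI 155 to 162; runs 147, 163 and 182) and 157 CPM in CD4/CD8-selected cells (CI 151 to 164; runs 146, 175 and 205). The pooled macrophage levels agreed within counting error, but run 3 was the lowest of the CD4/CD8-selected runs. Without it that level was 185 CPM (CI 173 to 198), above the interval of the CD11c-selected cells. T cells among CD11c-selected cells had 144 CPM (CI 113 to 183; 3 runs at 130.5, 161 and 171), well under the 581 CPM of CD4/CD8-selected T cells (CI 576 to 586; runs 454, 558 and 755). Further down were cDC2 with 105 CPM, migratory dendritic cells with 43.0 (26.5 without run 5), *Retnla* *Ear2* *Fn1* cells with 41.8, neutrophils with 7.76 from 3 UMIs (3.56 without run 2) and cDC1 with 6.96 (4.21 without run 3). In *Retnla* *Ear2* *Fn1* cells run 4 was the highest, at 66.3 CPM. Thinned shares were 41.8% in CD4/CD8-selected T cells, 14.0% in CD11c-selected macrophages and 0.319% in cDC1. Without thinning they were 82.6%, 57.8% and 9.58%, at medians of 4426.5, 8017.5 and 15262 UMIs.

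**Figure D2:**
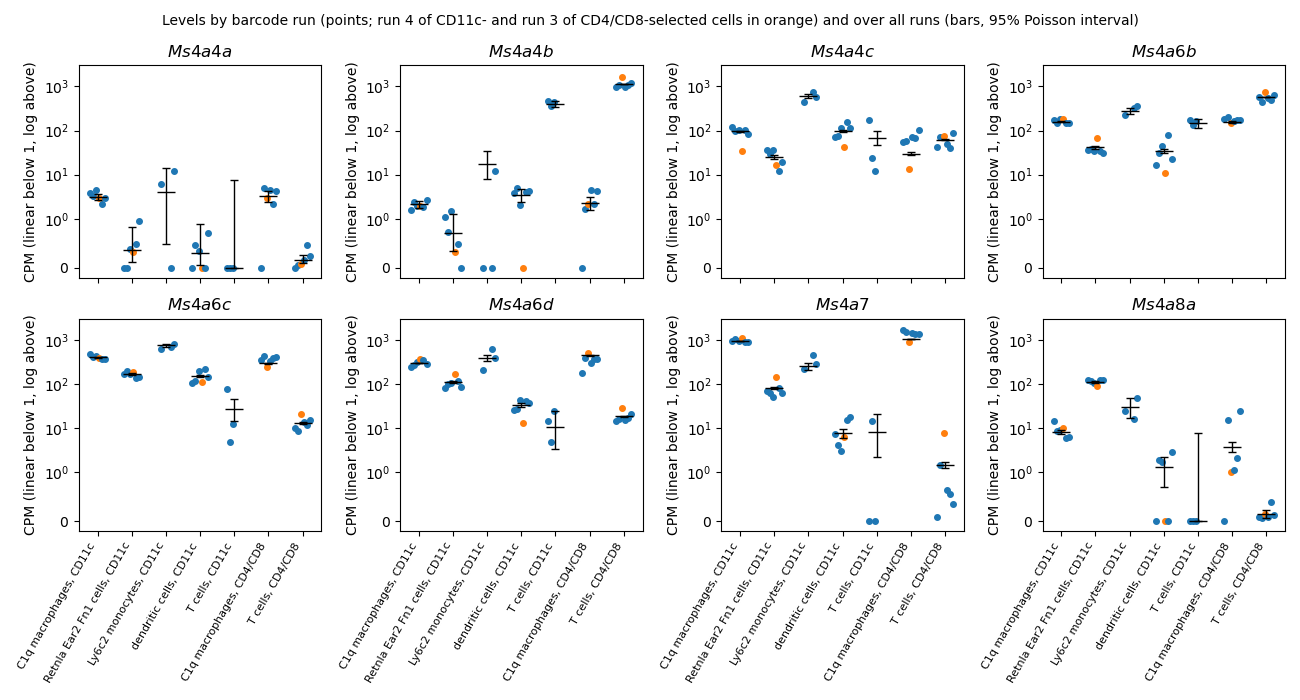
CPM (log scale, linear below 1) of each of the 8 members in the barcode runs of chosen gates, with a point per run that has at least 10 cells, runs that stood apart in orange, and a bar with 95% Poisson interval for the pooled level. *Ms4a7* in CD4/CD8-selected T cells spans 0.0876 to 7.79 CPM over runs, while *Ms4a6b* in CD11c-selected macrophages spans 147 to 182 CPM.

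Macrophages were set against *Ly6c2* monocytes to ask which members differ between these myeloid cells of the tumor. A member was called when its CPM differed at least 2-fold with at least 10 UMIs over both gates. The shares of genes given beside the members, here and below, cover only genes with at least 100 UMIs. Members under that number could still be called, so members and shares are not fully alike. Of the 8 members, 1 was higher in macrophages, where 11.6% of the 10302 genes with at least 100 UMIs were, and 3 were lower, against 5.42% of all genes. *Ms4a7* was 3.81-fold higher (CI 3.20 to 4.57) and higher in 3 of 3 runs. *Ms4a4c* was 6.42-fold lower in macrophages (CI 5.71 to 7.20), in 3 of 3 runs, and *Ms4a8a* 3.59-fold lower (CI 1.99 to 5.98), also in 3 of 3 runs. *Ms4a4b* was 8.43-fold lower (CI 3.76 to 16.6) on the strength of 9 monocyte UMIs, most of them in the 7 monocytes of run 1. In the 3 runs with at least 10 cells of both gates, it was higher in macrophages in 2 and lower in 1. Without run 1 it differed by 1.05-fold and was not called, and without run 2 it was 13.04-fold lower. *Ms4a6c* was 1.87-fold lower (CI 1.68 to 2.07) and reached 2.03-fold when run 2 was left out. The median log2 ratio was −0.86 over members and −0.02 over all genes. Cells with both *Ly6c2* and C1q lay between the gates for *Ms4a4c*, at 614, 501 and 95.6 CPM from monocytes to macrophages, and for *Ms4a7*, at 249, 671 and 950.1 CPM. Mixed droplets that hold a monocyte and a macrophage would also carry both marker sets, and their part in these values was not tested.

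Resident-like were set against lipid-associated macrophages within the CD11c-selected cells, to ask which members mark these macrophage states. Of the 8 members, 2 were higher in the *Lyve1* *Cd209f* cells, where 10.7% of 5238 genes were, and 1 was lower, against 8.69% of genes. *Ms4a8a* differed most, 19.5-fold (CI 10.8 to 38.1), in 4 of 4 runs, and 30.1-fold without run 5. *Ms4a6b* was 2.26-fold higher (CI 1.95 to 2.63) in 5 of 5 runs, but 1.84-fold with a mean over cells and 1.81-fold in cells with no UMI of another marker panel. *Ms4a4c* was 4.43-fold lower (CI 2.78 to 7.48) in 5 of 5 runs. *Ms4a6c* (1.53-fold), *Ms4a6d* (1.08-fold), *Ms4a7* (1.07-fold) and *Ms4a4a* (1.53-fold, from 4 and 8 UMIs) were not called, and *Ms4a4b* had too few UMIs. The interval of *Ms4a4a* took in equal levels (CI 0.336 to 5.70). Of its 4 UMIs in *Lyve1* *Cd209f* cells, 2 were in run 3, where *Gpnmb* *Spp1* *Trem2* macrophages had 0. The members' median log2 ratio was 0.61, which is the value of *Ms4a4a*, and that of all genes was 0.02.

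Against dendritic cells of the CD11c selection, macrophages had 6 of the 8 members higher, where 15.8% of 10726 genes were higher, and 0 lower, against 10.2% of genes. *Ms4a7* led with 124-fold (CI 99.1 to 158). *Ms4a4a* followed with 10.3-fold (CI 3.47 to 50.5) from 3 UMIs in dendritic cells. *Ms4a6d* was 8.95-fold higher (CI 8.03 to 10.0), *Ms4a8a* 6.24-fold (CI 3.61 to 11.8), *Ms4a6b* 4.54-fold (CI 4.07 to 5.07) and *Ms4a6c* 2.60-fold (CI 2.47 to 2.74). All 6 of these members were higher in 6 of 6 runs. *Ms4a4c* differed by 0.969-fold (CI 0.905 to 1.04), and *Ms4a4b* by 0.610-fold (CI 0.413 to 0.922) on 34 dendritic cell UMIs. The dendritic cell gate hid large differences among its parts, since *Ms4a4c* was at 282 CPM in cDC2 and 11.0 CPM in cDC1 (7.31 without run 3). Over runs *Ms4a8a* spanned 0 to 9.90 CPM in cDC2 and 5.96 to 14.2 CPM in macrophages. *Ms4a6b* spanned 44.6 to 139 CPM in cDC2 and 147 to 182 CPM in macrophages. The ratios above are for the pooled dendritic cell gate, and no ratio was taken against cDC2 alone. For *Ms4a6c* the pooled direction turned within the dendritic cell gate, as cDC2 stood at 459 CPM, above the 399 CPM of macrophages. By run, cDC2 were above macrophages in run 3 (536 against 425 CPM) and run 5 (583 against 375). They were below in run 1 (379 against 466), run 2 (396 against 399) and run 6 (371 against 377). In dendritic cells with no UMI of another marker panel, *Ms4a6b* was 22.8 CPM in place of 34.9. The median log2 ratio was 2.41 over members and 0.04 over all genes.

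T cells were compared with macrophages within each matrix, so that both shared their libraries. In CD4/CD8-selected cells 3 of the 8 members were higher in T cells, where 28.9% of 11383 genes were, and 5 were lower, against 20.8% of genes. *Ms4a4b* was 496-fold higher (CI 357 to 712) in 6 of 6 runs, and *Ms4a6b* 3.69-fold higher (CI 3.54 to 3.85) in 6 of 6 runs. *Ms4a4c* was 2.09-fold higher (CI 1.90 to 2.30) when runs were pooled, but higher in only 2 of 6 runs. Without run 3, which held 442 of the 830 macrophages, T cells had 0.881 times the macrophage level. The ratio was 1.21-fold with a mean over cells, 1.69-fold in cells with no UMI of another marker panel, and 0.846-fold with the top 5% of cells by UMIs left out, so the call was lost in each. *Ms4a7* was 721-fold lower (CI 613 to 854) and below the macrophages in 6 of 6 runs. Without run 3 it was 2679-fold lower, at 0.544 CPM in T cells and 1458 CPM in macrophages, so the size of this ratio depended on that run. *Ms4a8a* was 27.3-fold lower (CI 15.0 to 53.0), *Ms4a6d* 24.5-fold (CI 23.3 to 25.8), *Ms4a6c* 22.0-fold (CI 20.7 to 23.4) and *Ms4a4a* 20.2-fold (CI 11.3 to 38.0). The ratio of *Ms4a8a* was 75.8-fold without run 3 and 15.1-fold without run 2. The median log2 ratio was −4.40 over members and 0.27 over all genes.

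The 81 T cells of the CD11c selection gave a smaller base for the same question. Of the 8 members 1 was higher, where 17.8% of 10351 genes were, and 3 were lower, against 17.9% of genes. *Ms4a4b* was 190.4-fold higher (CI 151 to 242) in 3 of 3 runs. *Ms4a7* was 115-fold lower (CI 44.9 to 422), *Ms4a6d* 29.2-fold (CI 12.5 to 89.9) and *Ms4a6c* 14.9-fold (CI 8.70 to 27.9), each in 3 of 3 runs. The 3 lower ratios rested on 4, 5 and 13 T cell UMIs in that order. *Ms4a6c* was 67.2-fold lower without run 1, which held most of its T cell UMIs, and 9.23-fold lower without run 2, while *Ms4a7* was 258-fold lower without run 2. *Ms4a6b* was at 0.913-fold, with an interval around equal levels (CI 0.711 to 1.15), whereas it was higher in T cells of the other matrix. The difference between the matrices was not tested. *Ms4a4c* was at 0.713-fold (CI 0.490 to 1.00), and 3.53-fold lower in T cells without run 1, the run with the highest T cell level of 171 CPM. *Ms4a4a* and *Ms4a8a* had 0 UMIs in these T cells and could not be called. The median log2 ratio was −0.45 over members, with those at 0 UMIs entered at the level of 3 UMIs, and 0.17 over all genes.

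Naive-like were set against exhausted CD8 T cells to follow members along the states of CD8 T cells in the tumor. Of the 8 members 1 was higher in naive-like cells, where 3.78% of 8077 genes were, and 1 was lower, against 6.87% of genes. *Ms4a4c* was 3.16-fold higher (CI 2.66 to 3.79) in 6 of 6 runs, with run ratios of 1.28, 3.99 and 20.1 as lowest, median and highest, and 4.87-fold higher without run 3. *Ms4a7* was 2.78-fold lower (CI 1.22 to 6.09) on 18 and 12 UMIs, but 1.84-fold lower and not called in cells with no UMI of another marker panel. Without run 3 it had too few UMIs. With run 3 kept, *Ms4a7* was at 1.20 CPM in naive-like and 3.34 CPM in exhausted cells, against 1051 CPM in CD4/CD8-selected macrophages. The whole CD8 T cell gate, also with run 3, held 0.146% of the macrophage level of *Ms4a7*, under the 0.218% of the macrophage gene *Apoe*. These shares are not for exhausted cells alone, and the part of free RNA in the *Ms4a7* difference was not tested. *Ms4a4b* was lower by 1.22-fold (CI 1.19 to 1.26) and in 4 of 6 runs, but level with exhausted cells without run 3 (1099 and 1100.0 CPM), and *Ms4a6b* by 1.04-fold (CI 0.990 to 1.09), in 1 of 6 runs. Without run 3 *Ms4a6b* was higher in naive-like cells, at 540 against 444 CPM. *Ms4a4a* and *Ms4a8a* had too few UMIs. The median log2 ratio of the members, −0.23, was close to the −0.26 of all genes.

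Free RNA from broken cells gives UMIs in droplets that do not express a gene, and genes typical of a given source were looked up beside the members. In CD4/CD8-selected T cells the macrophage genes *Apoe* and *Lyz2* stood at 0.204% and 0.188% of their macrophage level. *Ms4a7* stood at 0.139%, below both. *Ms4a6c* at 4.54% and *Ms4a6d* at 4.08% lay above them, as did *Ms4a4a* at 4.95% from 16 UMIs and *Ms4a8a* at 3.66% from 14 UMIs. The share of *Ms4a8a* was taken against C1q macrophages at 3.79 CPM, far below the *Retnla* *Ear2* *Fn1* cells of that matrix. It also depended on runs. T cells and macrophages had 0.136 and 10.3 CPM of *Ms4a8a* without run 3, and 0.151 and 2.29 CPM without run 2. *Ctss*, the gene whose levels over gates were most like those of *Ms4a6c* (below), stood at 2.59%, also above *Apoe* and *Lyz2*. In the opposite direction, macrophages of that matrix had 0.202% of the T cell level of *Ms4a4b*, under the 0.288% of *Nkg7* and 0.411% of *Gimap4* and the 0.899% of *Ccl5*. In CD11c-selected cells *Nkg7* and *Gimap4* had 0 UMIs in cDC2 and in monocytes, where *Ms4a4b* had 2.75% and 4.43% of its T cell level. *Ccl5*, the other T cell reference, had 0.337% in cDC2 and 14.1% in monocytes, and 3.27% in macrophages of that matrix, where *Nkg7* and *Gimap4* had almost none. These reference genes were chosen by hand, the *Ms4a4b* values rest on 19 and 9 UMIs (2.31 CPM in monocytes without run 1, against 17.8), and the part of free RNA in them was not tested.

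The genes with the most similar levels over gates were taken from 4709 candidates by Pearson correlation of log2 of CPM plus 1 over 31 gates that do not overlap in cells. These correlations are a description, since the gates share libraries and differ in depth. For *Ms4a7* they were *C3ar1* (r = 0.971), *Apoe* (0.964) and *Ccl12* (0.962). *Ms4a6c* was closest to *Ctss* (0.969), *Aif1* (0.934) and *Ly86* (0.932), and *Ms4a6d* to *Lilr4b* (0.941), *Cx3cr1* (0.931) and *Osm* (0.911). *Ms4a4a* was paired with *Ccl12* (0.907), *Ms4a7* (0.906) and *Stab1* (0.903). The list for *Ms4a8a* was *F13a1* (0.863), *Lyz1* (0.847) and *Snx2* (0.840). *Ms4a4b* had *Gm8369* (0.958), *Cd96* (0.954) and *Ikzf3* (0.952), and *Ms4a6b* had *Lpxn* (0.892), *Ifi206* (0.883) and *Il2rg* (0.836). *Ms4a4c* had the weakest matches, among them *AI504432* (0.791) and *Slamf7* (0.748). The lists depended on the number added before the log. With 10 in place of 1, *Ms4a6d* kept 0 of its 3 genes among the 3 highest, *Ms4a4c* kept 1, and each other member kept 2. Between members the highest values were 0.906 for *Ms4a4a* and *Ms4a7*, 0.895 for *Ms4a6d* and *Ms4a7*, and 0.888 for *Ms4a6c* and *Ms4a6d*. With 10 added the order changed, to 0.865, 0.918 and 0.909 for the same pairs. With 1 added, *Ms4a4b* was at 0.602 with *Ms4a6b* and at −0.48 with *Ms4a7*.

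Of the 11 other Ms4a genes, *Ms4a14* had 2029 and 484 UMIs in the matrices and was a macrophage gene, at 31.7 CPM in CD11c-selected macrophages (CI 30.3 to 33.3) against 0.102 CPM in dendritic cells from 1 UMI. *Ms4a4d*, a close relative of *Ms4a4b* and *Ms4a4c*, was found in fibroblasts with 89.8 CPM in CD11c-selected (CI 76.7 to 105) and 78.5 CPM in CD4/CD8-selected cells (CI 64.1 to 95.1), and its next gate had 1.11 CPM. *Ms4a1*, the gene of CD20, gave 110 and 19 UMIs, and B cells were too few to gate. Of the rest, *Ms4a10*, *Ms4a12*, *Ms4a15* and *Ms4a5* had at most 3 UMIs in a matrix, and *Ms4a2*, *Ms4a3*, *Ms4a13* and *Ms4a18* had 0. The related 4-pass genes *Tmem176a* and *Tmem176b* were also in myeloid cells. *Tmem176a* reached 754 CPM in migratory dendritic cells, a gate with little *Ms4a7* or *Ms4a6d*, and *Tmem176b* was highest in CD4/CD8-selected *Lyve1* *Cd209f* macrophages at 813 CPM.

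Receptors and adaptors that members of the family are known to work beside were looked up in the same gates. *Tnfrsf18*, the gene of GITR, was highest in *Foxp3* T cells with 1192 CPM (CI 1099 to 1291) and had 435 CPM in conventional CD4 T cells and 171 in exhausted CD8 T cells. The gate with the most *Tnfrsf18* was thus the T cell gate with the least *Ms4a4b* and *Ms4a6b* in that matrix. The Fc receptor chain *Fcer1g* had its top level in cells with *Ly6c2* and C1q, at 3078 CPM, and stood at 2668 CPM in CD11c-selected macrophages. The adaptor *Tyrobp* was highest in plasmacytoid dendritic cells with 3855 CPM, where *Ms4a6d* and *Ms4a7* had 0 UMIs. *Fcgr3* was highest in the *Lyve1* *Cd209f* macrophages of both matrices, with 707 and 640.5 CPM. *Trem2*, a marker in the lipid-associated panel, had 548 CPM in CD11c-selected macrophages (runs 370, 530 and 698) and 1385 CPM in CD4/CD8-selected ones (runs 425, 677 and 1686). Run 3, which held most of the CD4/CD8-selected macrophages, was the highest of the latter runs. Dectin-1 was not analysed here.

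The members form a cluster on chromosome 19. By GENCODE M21 on GRCm38 they lie within 537 kb, from 11067471 to 11604849, as 8 protein-coding genes, 5 on the plus and 3 on the minus strand, with 6 other Ms4a genes between them. In order of position they are *Ms4a8a* (11067471 to 11081102, minus), *Ms4a7* (11321039 to 11336146, minus), *Ms4a4a* (11375523 to 11392790, plus), *Ms4a4c* (11404770 to 11427246, plus), *Ms4a4b* (11443553 to 11467055, plus), *Ms4a6c* (11469366 to 11482192, plus), *Ms4a6b* (11516512 to 11531256, plus) and *Ms4a6d* (11586604 to 11604849, minus). Position did not sort the members by cell type. *Ms4a4b* ends 2310 bases before the start of *Ms4a6c*, and this pair of neighbors on 1 strand had opposite patterns, the former 496-fold higher in CD4/CD8-selected T cells than in macrophages and the latter 22.0-fold lower. *Ms4a8a*, with its particular order of macrophage states, stands 239936 bases from the next member, *Ms4a7*.

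**Figure D3:**
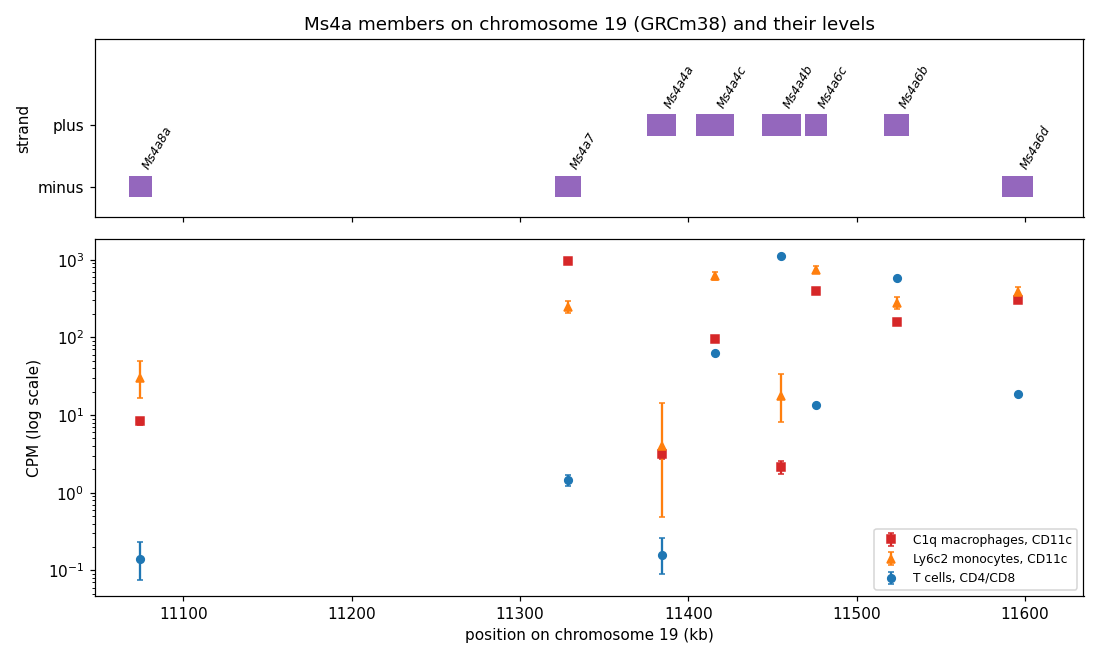
Positions of the 8 members on chromosome 19 (GRCm38, kb) by strand, and below them the CPM (log scale, 95% Poisson intervals) in CD11c-selected C1q macrophages and *Ly6c2* monocytes and in CD4/CD8-selected T cells. The neighbors *Ms4a4b* and *Ms4a6c* are high in different cells, at 1134 and 13.3 CPM in T cells and 2.11 and 399 CPM in macrophages.

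Promoters in the RefSeq table (GRCm38.p6) matched 7 of the 8 members, with 8 start sites, and the 250 bases before the start were compared. Starts are those of that table and can differ from the GENCODE gene starts given above. For *Ms4a6b* and *Ms4a4c* the compared bases lie inside the GENCODE gene bounds, and so are not the bases before the GENCODE start. *Ms4a6d* had no entry. Among the 21 pairs, 2 shared a run of at least 16 bases, and the other pairs shared at most 9. The promoters of *Ms4a6b* (chr19:11518309-11518558, plus strand) and *Ms4a6c* (chr19:11469118-11469367, plus strand) held an identical run of 48 bases, 118 to 71 bases before the start of *Ms4a6b* and 49 to 2 bases before that of *Ms4a6c*. No other gene of the table held that run. They are shown because these genes share it and differ in cells, *Ms4a6b* being 3.69-fold higher and *Ms4a6c* 22.0-fold lower in CD4/CD8-selected T cells than in macrophages. Capitals mark the shared run, and both sequences read 5′ to 3′.
Ms4a6b: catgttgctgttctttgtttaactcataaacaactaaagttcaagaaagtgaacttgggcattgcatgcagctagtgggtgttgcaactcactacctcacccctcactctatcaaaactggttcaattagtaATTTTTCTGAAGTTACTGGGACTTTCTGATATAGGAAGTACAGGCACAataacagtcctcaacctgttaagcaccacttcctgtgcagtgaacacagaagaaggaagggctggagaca
Ms4a6c: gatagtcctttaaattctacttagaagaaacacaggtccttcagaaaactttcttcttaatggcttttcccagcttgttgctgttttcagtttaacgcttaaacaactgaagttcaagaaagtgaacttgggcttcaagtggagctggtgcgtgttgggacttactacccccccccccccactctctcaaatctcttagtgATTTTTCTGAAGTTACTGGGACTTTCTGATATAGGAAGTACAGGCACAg

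The promoters of *Ms4a4b* (chr19:11443308-11443557, plus strand) and *Ms4a4c* (chr19:11407411-11407660, plus strand) shared 20 identical bases, 41 to 22 and 38 to 19 bases before the start. Around that run they were alike over a longer stretch, with 142 of 247 bases (57.5%) the same in an alignment without gaps. For *Ms4a6b* and *Ms4a6c* the same alignment gave 91 of 181 bases (50.3%). Both *Ms4a4b* and *Ms4a4c* had higher pooled levels in T cells than in macrophages of the CD4/CD8 selection, but *Ms4a4c* only with run 3, and *Ms4a4c* was also high in monocytes. Capitals again mark the shared run.
Ms4a4b: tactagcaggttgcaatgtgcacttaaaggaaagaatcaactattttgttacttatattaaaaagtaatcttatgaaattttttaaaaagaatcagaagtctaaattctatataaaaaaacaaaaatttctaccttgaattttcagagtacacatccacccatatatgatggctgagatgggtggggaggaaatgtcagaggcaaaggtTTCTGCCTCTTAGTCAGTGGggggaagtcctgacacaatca
Ms4a4c: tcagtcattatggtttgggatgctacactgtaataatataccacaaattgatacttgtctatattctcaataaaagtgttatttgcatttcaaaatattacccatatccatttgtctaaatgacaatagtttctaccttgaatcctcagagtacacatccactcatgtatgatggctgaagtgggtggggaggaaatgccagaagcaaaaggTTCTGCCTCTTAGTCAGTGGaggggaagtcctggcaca

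Motifs were counted on both strands of the 250 bases, and a match of letters is a description and not a binding site. The interferon-type pair, GAAA repeated with 2 bases of any kind between, was in 0 of 7 member promoters and in 2.98% of all 32851 promoters of the table. The STAT-type motif TTCNNNGAA was in 0 of 7 (7.02% of all) and the ETS-type GAGGAAGT of PU.1 in 0 of 7 (2.44% of all). The AP-1 motif TGANTCA was in 2 of 7, *Ms4a7* and *Ms4a8a*, against 6.75% of all promoters.

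Close relatives can also share transcript sequence, which limits how surely a UMI is given to a member. Of the stretches of 50 bases in their protein-coding transcripts, *Ms4a4b* and *Ms4a4c* shared 134, *Ms4a6b* and *Ms4a6c* shared 109, and *Ms4a6b* and *Ms4a6d* shared 40. Outside the members, *Ms4a4b* shared 63 with *Ms4a2*, and *Ms4a4c* shared 8 with *Ms4a4d*. Which end of the transcripts the libraries read was not given in the sources used here, so the 3′ end is described beside the whole. For *Ms4a4c*, 126 of those shared with *Ms4a4b* lay in the last 500 bases of a transcript, while 0 lay there for *Ms4a4b*. In all, 11.0% of the stretches in the last 500 bases of *Ms4a4c* were shared with another Ms4a gene, 10.4% for *Ms4a6c* and 1.22% for *Ms4a6b*. *Ms4a4a*, *Ms4a7* and *Ms4a8a* shared 0, and *Ms4a4b* and *Ms4a6d* shared 0 in their last 500 bases. Longer stretches of 90 bases were shared less, with 38 for *Ms4a4b* and *Ms4a4c*, 7 for *Ms4a6b* and *Ms4a6c* and 0 for *Ms4a6d*. At that length 2.74% of the stretches in the last 500 bases of *Ms4a4c* and 1.70% for *Ms4a6c* were shared. T cells carry much *Ms4a4b* and *Ms4a6b*, and the part of shared sequence in their low values of *Ms4a4c*, *Ms4a6c* and *Ms4a6d* was not tested.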

How the data were processed

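UMI counts per gene and cell were used as the authors deposited them, as whole numbers in 1 matrix per cell selection; the labels give Cell Ranger 3.0.2 and mm10. The members and all lists were chosen with earlier results of these data known. Barcodes needed 200 detected genes, and doublets were not removed. Gates needed 10 UMIs of C1q, *Gpnmb* *Spp1* *Atp6v0d2* (with 1 of *Trem2*), *Thbs1* *Vegfa*, neutrophil, epithelial or fibroblast markers, 5 of migratory or plasmacytoid DC markers, 3 of the other panels and 2 of CD8 and CD8 state markers, with limits on other panels; gates with under 20 cells were not used. Levels were UMIs summed over a gate. Genes named were the members, other Ms4a genes, *Tmem176a*, *Tmem176b*, partner genes (*Trem2* among them, also a gate marker) and, from genes outside the gate markers, the 3 most correlated per member, of which 1 is not reported here; *Nkg7*, *Gimap4*, *Ccl5*, *Ctss*, *Apoe* and *Lyz2* were added as references for free RNA, chosen by hand after the matrices had been opened. Cells were thinned with seed 1. The genotype comparison was not made, since no label of the matrices links a cell to a sample; the authors' processed R objects were not used here. Leaving out runs in gates outside the comparisons was chosen after seeing the data. Python 3.11.15, numpy 2.4.6, scipy 1.17.1, pandas 2.3.3 and matplotlib 3.10.9 were used.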

Additional observations from a re-analysis of the deposited data

Results flagged for a closer look

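In 40 groups of 6 barcode runs, 7 had a highest run whose gap to the next was above Dixon's 95% critical value. Chance flags about 1 in 20 groups, and the groups share runs. The median depth in run 4 of the CD11c-selected cells was 31161.5 UMIs, and 9285.5 in the next run. In *Retnla* *Ear2* *Fn1* cells the same run had 66.3 CPM of *Ms4a6b*, against 38.4 in the next run, and 144.8 CPM of *Ms4a7*, against 81.2. Run 3 of the CD4/CD8-selected cells held 442 macrophages, against 112 in the next run. In its CD8 T cells *Ms4a4b* was at 1637 CPM, against 1223 in the next run, and *Ms4a7* at 7.83 CPM, against 1.45. The median depth in run 2 of the CD4/CD8-selected cells was 6525 UMIs, and 4436.5 in the next run.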

How the results depend on the processing

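Of 27 member ratios called at 2-fold, 26 kept their direction under every alternative in which they had enough UMIs, and 23 stayed past 2-fold there. The alternatives were doubled gate minimums, at least 500 detected genes, a mean over cells, the top 5% of cells by UMIs left out, cells with no UMI of another marker panel, and leaving out each barcode run. Of 132 alternative values of the 12 counts of members, 127 were within 1.5-fold of the reported count. Levels had 2168 alternative values, of which 1841 were marked as the same, 327 as moved and 0 as reversed. Shares of cells had 160, of which 40 were marked as the same and 120 as moved. With doubled gate minimums, 5 members were lower in macrophages than in monocytes in place of 3, *Ms4a4a* (2.68-fold) and *Ms4a6c* (2.15-fold) being added, from 27 monocytes in place of 64. In resident-like against lipid-associated macrophages, 1 member was higher in place of 2, with a mean over cells and in cells with no UMI of another panel, *Ms4a6b* being lost. In naive-like against exhausted CD8 T cells, 0 members were lower in place of 1 in cells with no UMI of another panel, *Ms4a7* being lost (1.84-fold). Leaving out a run gave 0 to 1 there. The log2 ratio of *Ms4a4c* in T cells against macrophages of the CD4/CD8 selection was 1.06, and it turned to −0.24 with the top 5% of cells left out; the call was also lost with a mean over cells (1.21-fold) and in cells with no UMI of another panel (1.69-fold). For the same ratio, leaving out a run gave −0.18 (without run 3) to 1.26. In T cells of the CD11c selection a mean over cells made *Ms4a4c* 2.13-fold lower than in macrophages. The cause of these changes was not tested beyond the values given. No paired analysis was possible because no label used here links a cell or a barcode run to a sample, so replicate numbers could not be used. Depth limits *Ms4a4a*, with 234 and 81 UMIs in the matrices, and the T cells, neutrophils and monocytes of the CD11c selection.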
